A study of Mus musculus with 12 samples.

Results

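The response of Dnmt3a knockout soleus to exercise was examined by comparing 3 RNA-seq libraries of exercised knockout (KO) mice with 3 libraries of sedentary KO mice, 6 of the 12 libraries in the series. All genes that passed a filter on low counts entered the comparison, which left 13886 of 24539 listed genes. The mice were of the C57BL/6 strain, were fed chow, and carried a knockout named MCK-Dnmt3a KO in the labels. Both KO groups share it, and the sample labels set them apart by exercise only. The column names differ further, since a pair of animal numbers stands in an exercised KO column and in no sedentary KO column. Whether animals were pooled there is not stated. The other 6 libraries, 3 sedentary and 3 exercised, came from C57BL/6 mice called wild type (WT) and described as carrying floxed Dnmt3a alleles, and are used here only to set the same contrast beside the knockout values. MCK usually stands for muscle creatine kinase, whose promoter is active in striated muscle fibres, so that vessel, connective tissue, nerve and blood cells of the muscle would keep the gene. No source used here gives the kind and length of the exercise, the time from exercise to dissection, the time of day, or the age and sex of the mice.

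Dnmt3a encodes a DNA methyltransferase that can place methyl groups on unmethylated DNA. The soleus is a postural calf muscle rich in slow, oxidative fibres. In skeletal muscle a bout of contraction is known to raise calcium, cyclic AMP signalling, heat and mechanical load, and the first transcripts to respond are usually early-response genes, which code for transcription factors of the AP-1 and NR4A families, followed by chaperones of the heat shock response and by regulators of metabolism. Cells between the fibres, among them endothelial cells and macrophages, contribute to the RNA of the whole muscle. In such bulk samples fewer cells of a type and less RNA per cell cannot be told apart.

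The markers of the tissue were in place. Levels are given in CPM, the TMM-scaled count of a gene relative to the size of its library, and are compared only within a gene. Myh7, the slow myosin heavy chain, stood at 8660, 7059 and 9074 CPM in the sedentary and at 12450, 10280 and 10540 CPM in the exercised KO libraries, and Myh2, the fast oxidative isoform, at 8555, 8166 and 9914 CPM and at 13850, 9407 and 10000 CPM. Myh4, the fastest isoform, varied from 33.8 CPM in KO sedentary a to 5505 CPM in KO sedentary b. KO sedentary b stood apart in other ways too. The 18 hepatocyte markers summed to 784 CPM there, against 157 and 87.8 CPM in the other sedentary KO libraries and 30.4 to 62.5 CPM in the exercised ones. The macrophage and Schwann cell markers were also highest there among the KO libraries. KO exercise a carries a pair of animal numbers in its column name, and its clock index, the mean log2 CPM of 7 clock-controlled genes, was 6.93, near the 6.14 of KO sedentary a and above the 4.53 to 4.87 of the other 4 KO libraries. Total counts of the KO libraries ran from 14730119 to 15480960.

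Dnmt3a itself checked the labels. It stood at 49.3, 52.7 and 48.6 CPM in the sedentary and 60.5, 58.1 and 57.4 CPM in the exercised KO libraries, against 113 to 179.7 CPM in the 6 WT libraries. All 6 KO libraries lay below all 6 WT libraries. In KO the exercised libraries differed from the sedentary ones by 0.23 ± 0.16 on the log2 scale (SE), which did not pass the test (adjusted p = 0.463, edgeR's quasi-likelihood test with Benjamini-Hochberg adjustment). The exons that were deleted are not named in the labels.

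No single gene passed the test of exercised against sedentary KO soleus at an adjusted p of 0.05 by edgeR's quasi-likelihood test (0 of 13886 genes, 0.0%), and the smallest adjusted p was 0.1186. At an unadjusted p under 0.05, 935 genes (6.73%) were higher after exercise and 1557 (11.2%) were lower. In 1426 genes (10.3%) all 3 exercised libraries lay above all 3 sedentary ones, and in 1731 genes (12.5%) they all lay below. DESeq2, run as an alternative on the same counts, called 109 genes higher (0.818% of the 13331 genes it adjusted) and 250 lower (1.88%), and limma-voom called 0. Below, "called by DESeq2" refers to these calls, and "nominally higher" or "nominally lower" to an unadjusted edgeR p under 0.05. Where no share is given, counts of list members below are to be read against the shares of all tested genes above. The counts leaned on single libraries. Without KO sedentary b, 600 genes were nominally higher and 957 lower, and DESeq2 called 38 genes in all. Of the 59 genes named here that DESeq2 called, 33 were not called without KO sedentary b and 15 not without KO exercise a. Leaving out KO exercise c, 454 were nominally higher and 880 lower. With the hepatocyte index, the log2 of the summed hepatocyte markers, as a covariate the counts were 302 and 497. This index did not overlap between the KO groups, at 6.47 to 9.62 in the sedentary and 4.97 to 5.99 in the exercised libraries. Fits with it, here and below, therefore cannot tell an exercise change from one that goes with the liver transcripts. Without scaling factors, which moved the median log2 change of all genes from -0.01 to -0.12, 229 genes were nominally higher and 2254 lower, so that 9.22% of the nominal changes were rises in place of 37.5%.

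The 10 higher genes with the smallest p were Hspa8, Ier5, BB123696, 2310020H05Rik, Slc25a25, Fosl2, Jun, Pqlc1, 5031434C07Rik and 9530052E02Rik. The lower genes with the smallest p include Akap5, Gbp4, Hjurp, Kcnj2, Themis2, Nlrc5, 6430706D22Rik, Csf1 and Dok4. None of these 19 overlapped between the KO groups, which follows in part from how they were chosen. DESeq2 called 9 of the 10 higher genes and all 9 lower ones. Their sign was the same in WT muscle for 19 of 19. Hjurp and 6430706D22Rik changed nearly alike, and whether they share reads was not tested, so the 19 may not all be separate genes.

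**Figure D1:**
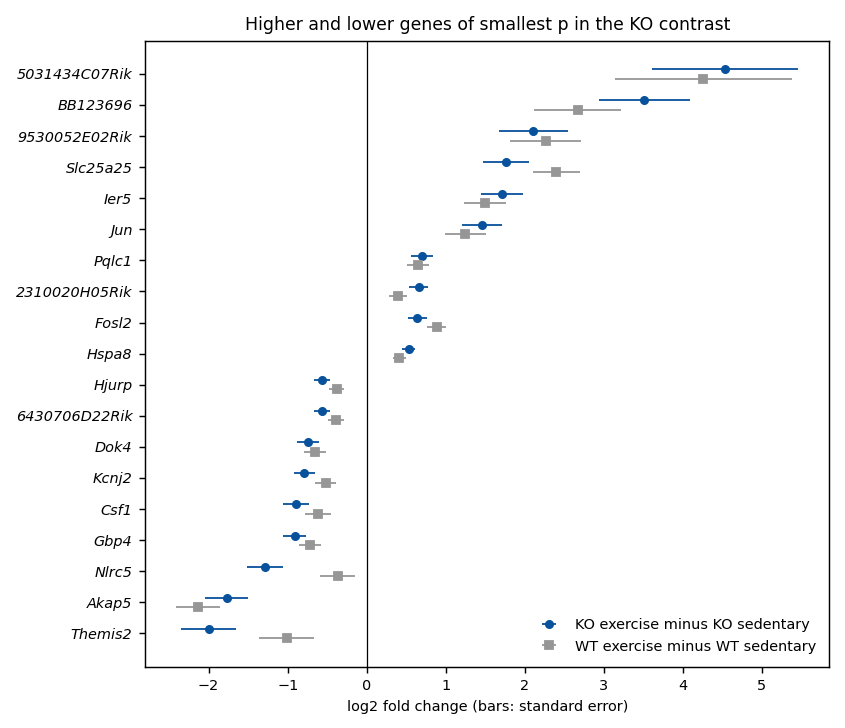
log2 fold change of exercised against sedentary soleus (horizontal axis, bars: standard error) for the 10 higher and 9 lower genes named by their p in the KO contrast, in KO (circles) and WT (squares), each from 3 libraries a group. All 19 genes have the same sign in both genotypes, and Nlrc5 shows the widest gap relative to its errors.

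Early-response genes were one group on the higher side. Ier5, an immediate early gene whose protein is known to act on heat shock factor 1, stood at 25.1, 24.1 and 23.4 CPM in the sedentary and at 58.9, 75.0 and 105 CPM in the exercised KO libraries. The groups did not overlap, and the log2 change was 1.72 ± 0.27 (adjusted p = 0.1186 by edgeR, 9.3e-08 by DESeq2). Jun, the central AP-1 subunit, stood at 116, 122 and 152 CPM in the sedentary and at 228, 414 and 430.3 CPM in the exercised libraries, a log2 change of 1.46 ± 0.26. KO exercise a was the lowest of the 3 exercised libraries, and the other two lay close together. Fosl2, another AP-1 subunit, differed less but more evenly, from 31.4 to 36.6 CPM in the sedentary to 48.8 to 57.9 CPM in the exercised libraries.

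Atf3, a stress-induced factor of the same family, had one of the largest changes of the early-response genes. It stood at 14.3, 25.99 and 40.6 CPM in the sedentary and at 79.1, 299.6 and 509.8 CPM in the exercised KO libraries, a log2 change of 3.46 ± 0.74 (DESeq2 adjusted p = 0.000591). The groups did not overlap, and both varied several-fold within themselves. Fos had the same order of exercised libraries, at 17.7, 39.1 and 32.1 CPM against 43.1, 173 and 266 CPM. Its log2 change of 2.44 ± 0.80 was not called by DESeq2 (adjusted p = 0.05596). Btg2, an antiproliferative early-response gene, stood at 56.6, 77.6 and 40.6 CPM against 185, 226 and 349.7 CPM, and its log2 change of 2.12 ± 0.45 was called by DESeq2 (adjusted p = 0.00226). Egr1, a zinc finger factor often used as a marker of early induction, overlapped between the groups: 133, 44.5 and 27.9 CPM in the sedentary and 37.7, 102 and 142 CPM in the exercised libraries. Over the list of AP-1 factors, 5 of 9 tested genes were nominally higher against 6.73% of all tested genes and 1 was nominally lower against 11.2%, and the median log2 change was 1.24, beside -0.01 over all tested genes. Of 27 other early-response genes, read against the same shares, 7 were nominally higher and 1 lower, with 11 of 27 on the negative side and a median of 0.22. With KO sedentary b left out, 5 AP-1 factors and 4 other early-response genes were nominally higher, and without KO exercise c the AP-1 median was 0.58.

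**Figure D2:**
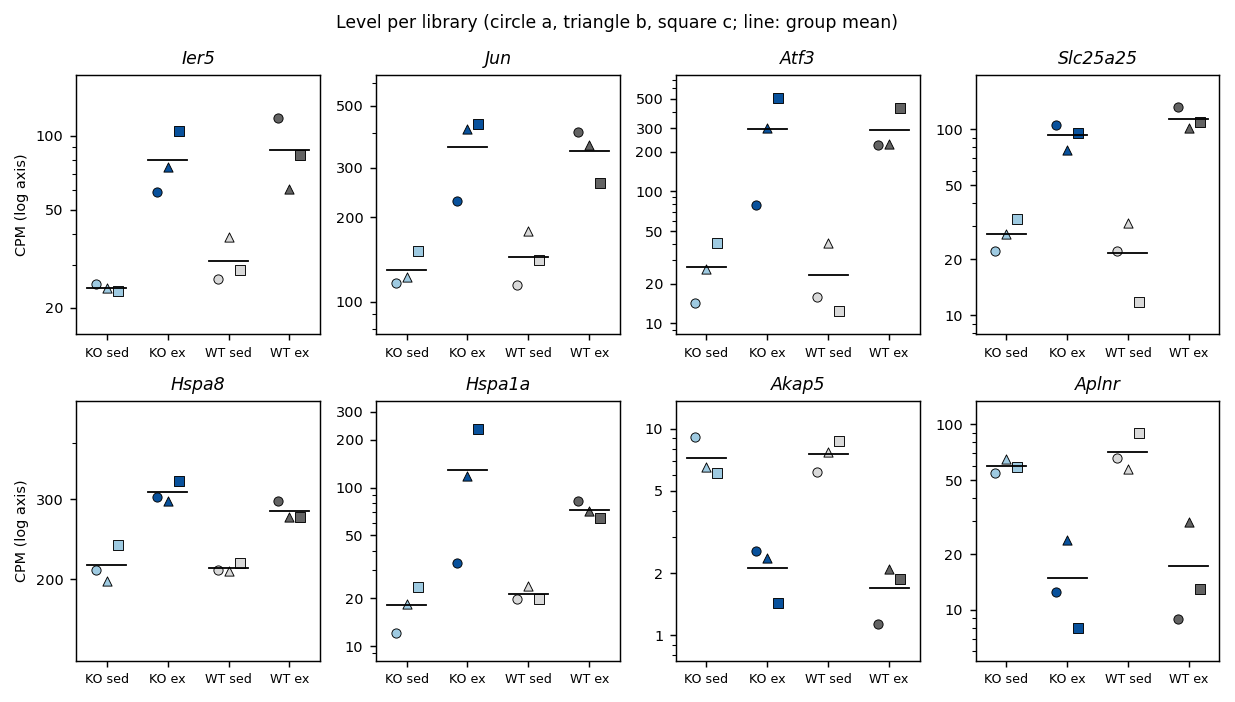
Level of 8 genes in each of the 12 libraries in CPM (vertical log axes), by group (horizontal axis; KO sed, KO ex, WT sed, WT ex), with circles for library a, triangles for b, squares for c and a line at the group mean. Ier5, Jun, Atf3, Slc25a25, Hspa8 and Hspa1a are higher and Akap5 and Aplnr lower in all 3 exercised KO libraries than in any sedentary KO library; KO exercise a (dark blue circle) is the lowest exercised library for Jun, Atf3 and Hspa1a.

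Genes that cyclic AMP and calcium are known to control through the factor CREB formed the second group. Slc25a25, a calcium-regulated carrier of ATP-Mg across the inner mitochondrial membrane, stood at 22.2, 27.3 and 32.7 CPM in the sedentary and at 106, 77.1 and 96.1 CPM in the exercised KO libraries (log2 change 1.76 ± 0.29, DESeq2 adjusted p = 3.743e-07). Unlike Atf3 and Fos, it was as high in KO exercise a as in the other exercised libraries. Nr4a2, an orphan nuclear receptor, stood at 3.96, 5.08 and 3.69 CPM against 14.1, 13.7 and 35.4 CPM (log2 change 2.31 ± 0.47, DESeq2 adjusted p = 1.704e-05). Its relative Nr4a3 stood at 10.9, 7.66 and 13.6 CPM against 13.8, 35.6 and 90.4 CPM, so that KO exercise a lay only just above the highest sedentary library. Sik1, a kinase that CREB induces, stood at 51.1, 67.9 and 122 CPM against 182, 185 and 289.9 CPM and was called by DESeq2 (adjusted p = 0.001339), though not without KO sedentary b (adjusted p = 0.1807). Irs2, an adaptor of the insulin receptor, stood at 18.4, 46.2 and 106 CPM against 168, 217 and 321 CPM, a log2 change of 2.05 ± 0.65 that DESeq2 did not call (adjusted p = 0.06461). The long noncoding RNA 9530052E02Rik, whose exons overlap those of Irs2 on the other strand, was among the 10 higher genes, at 0.440 to 1.98 CPM against 3.59 to 6.25 CPM. No source used here says whether the counting used strand, so the reads of this pair cannot be told apart.

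Akap5, which anchors protein kinase A and calcineurin beside their targets, went the other way and had the smallest p of all tested genes. It stood at 9.12, 6.498 and 6.13 CPM in the sedentary and at 2.56, 2.35 and 1.44 CPM in the exercised KO libraries (log2 change -1.77 ± 0.27, adjusted p = 0.1186 by edgeR, 6.874e-06 by DESeq2). All 3 exercised libraries lay below all 3 sedentary ones. Over the 15 tested genes of this list 6 were nominally higher against 6.73% of all tested genes and 2 lower against 11.2%. Their median log2 change was 0.56. The median was 0.23 without KO exercise c.

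Early-response genes and chaperones are known to be controlled by short elements just before their start, and promoter sequence is shown for 6 such genes. The letters of a heat shock element were found in Hspa1a, Hspa1b and Jun. Those of the cyclic AMP response element or its core were found in Fos, Btg2 and Nr4a2. Whether these matches act in these genes was not tested. The genes were chosen after their values were seen. Each sequence holds the 250 bases before the start site in the RefSeq annotation of build GRCm38.p6, read 5′ to 3′ on the strand of the gene, and capitals mark the elements found on either strand. The elements searched were the heat shock element GAANNTTC, the full cyclic AMP response element TGACGTCA, its core TGACG, the AP-1 site TGANTCA, the D-box TTATGNAA and the CArG box. A full site holds a core on each strand.
Hspa1a (chr17:34972157-34972406, minus strand): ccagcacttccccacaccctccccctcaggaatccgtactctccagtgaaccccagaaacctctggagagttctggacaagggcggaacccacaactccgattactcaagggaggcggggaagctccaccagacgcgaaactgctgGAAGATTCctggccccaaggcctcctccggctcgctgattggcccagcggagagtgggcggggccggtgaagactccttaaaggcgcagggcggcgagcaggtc
Hspa1b (chr17:34959239-34959488, minus strand): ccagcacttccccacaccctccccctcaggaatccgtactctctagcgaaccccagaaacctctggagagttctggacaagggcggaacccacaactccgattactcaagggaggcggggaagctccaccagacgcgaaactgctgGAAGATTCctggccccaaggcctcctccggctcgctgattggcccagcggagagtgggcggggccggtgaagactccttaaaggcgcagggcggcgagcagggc
Jun (chr4:95052223-95052472, minus strand): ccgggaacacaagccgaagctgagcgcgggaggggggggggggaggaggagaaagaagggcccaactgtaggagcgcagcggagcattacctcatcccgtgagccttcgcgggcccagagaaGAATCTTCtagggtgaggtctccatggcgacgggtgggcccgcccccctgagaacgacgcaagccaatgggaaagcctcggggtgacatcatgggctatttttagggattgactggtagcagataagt
Fos (chr12:85473640-85473889, plus strand): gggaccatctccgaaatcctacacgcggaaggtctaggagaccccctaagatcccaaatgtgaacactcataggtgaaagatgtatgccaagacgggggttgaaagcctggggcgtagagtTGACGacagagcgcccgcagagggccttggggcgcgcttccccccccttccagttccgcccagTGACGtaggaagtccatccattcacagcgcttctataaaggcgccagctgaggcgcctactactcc
Btg2 (chr1:134079156-134079405, minus strand): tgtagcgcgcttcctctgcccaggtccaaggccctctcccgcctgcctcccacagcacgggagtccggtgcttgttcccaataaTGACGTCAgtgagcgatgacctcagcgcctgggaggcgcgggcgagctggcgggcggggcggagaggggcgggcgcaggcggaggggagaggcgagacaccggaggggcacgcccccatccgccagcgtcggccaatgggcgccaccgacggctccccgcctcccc
Nr4a2 (chr2:57124004-57124253, minus strand): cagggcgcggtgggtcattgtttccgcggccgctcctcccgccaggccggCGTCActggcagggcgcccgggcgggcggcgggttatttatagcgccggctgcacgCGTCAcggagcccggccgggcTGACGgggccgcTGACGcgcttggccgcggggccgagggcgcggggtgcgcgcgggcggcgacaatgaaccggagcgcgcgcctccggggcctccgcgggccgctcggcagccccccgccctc

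The heat shock element begins 104 bases before the start in both Hspa1a and Hspa1b, whose 250 bases are equal at 247 positions, and 128 bases before it in Jun. Counted in windows of 300 bases that reach 50 bases past the start, the heat shock element was present in 10 of 21 chaperone windows (47.6%) and in 5.54% of the 10689 tested genes with a window. It was present in 6.18% of the windows of nominally higher genes and in 5.2% of those of nominally lower genes, both near the share of all windows. The core was present in 6 of 12 windows of the cyclic AMP list (50%), in 4 of 8 AP-1 windows (50%), in 12 of 21 chaperone windows (57.1%) and in 30.9% of all windows, so it was no more frequent in the cyclic AMP list than in the AP-1 or chaperone lists. The full element was present in 0 of 12 windows of the cyclic AMP list and in 3.19% of all windows. Among nominally higher genes 36.5% of 728 windows held the core, and among nominally lower genes 19.6% of 1153. These sets also differ in base composition, with a mean of 23.7 and 16 CpG dinucleotides a window, and the core itself contains one. The CArG box was present in 3 of 17 windows of the other early-response genes (17.6%) and in 1.32% of all windows. A match is a description of the letters and not of a factor's binding.

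The heat shock chaperones and their partners, which refold or hold unfolded proteins or help to do so, were on the higher side in all 26 tested members, or in 25 of 26 without scaling factors. Hspa8, the constitutive Hsp70 chaperone, had the smallest p of the higher genes. It stood at 209, 198 and 238 CPM in the sedentary and at 304, 298 and 329.8 CPM in the exercised KO libraries, a log2 change of 0.53 ± 0.08 (adjusted p = 0.1186 by edgeR, 2.802e-06 by DESeq2). The exercised libraries spread little, and the change ranged from 0.41 to 0.61 over the alternatives. Hspa1a, the inducible Hsp70, stood at 12.1, 18.3 and 23.7 CPM against 33.4, 118 and 235 CPM, a log2 change of 2.84 ± 0.58. Its near-identical copy Hspa1b stood at 8.17, 9.07 and 13.6 CPM against 15.7, 92.5 and 196 CPM, and reads of this pair may be split between them. In both copies KO exercise a was far below KO exercise b and c, and without it the adjusted p by edgeR passed the threshold for Hspa1a, Hspa1b, Dnajb1 and Jun, the 4 genes called in that fit.

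Dnajb1, an Hsp40 partner of Hsp70, showed the same split, at 14.7, 18.01 and 17.8 CPM in the sedentary and 22.4, 98.4 and 169 CPM in the exercised libraries. Hsph1, a nucleotide exchange factor for Hsp70, differed more evenly, at 84.4, 79.7 and 85.5 CPM against 94.3, 105 and 131 CPM (log2 change 0.40 ± 0.12). Of the 26 tested chaperones 13 were nominally higher against 6.73% of all tested genes, 15 did not overlap against 10.3%, and DESeq2 called 9. The median was 0.31, and 0.20 without scaling factors. When KO sedentary b was left out, 15 were nominally higher and DESeq2 called 3. In the integrated and ER stress list, by contrast, 2 of 20 genes were nominally higher and the median was 0.00, or -0.11 without scaling factors. Atf4, its central factor, stood at 211 to 217 CPM against 239.9 to 292 CPM and was called by DESeq2 (adjusted p = 0.03629), though not without KO sedentary b (adjusted p = 0.2636). Ddit4, an inhibitor of mTORC1, stood at 8.55, 13.1 and 10.4 CPM against 59.2, 38.1 and 46.0 CPM, with no overlap and a log2 change of 2.16 ± 0.68.

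**Figure D3:**
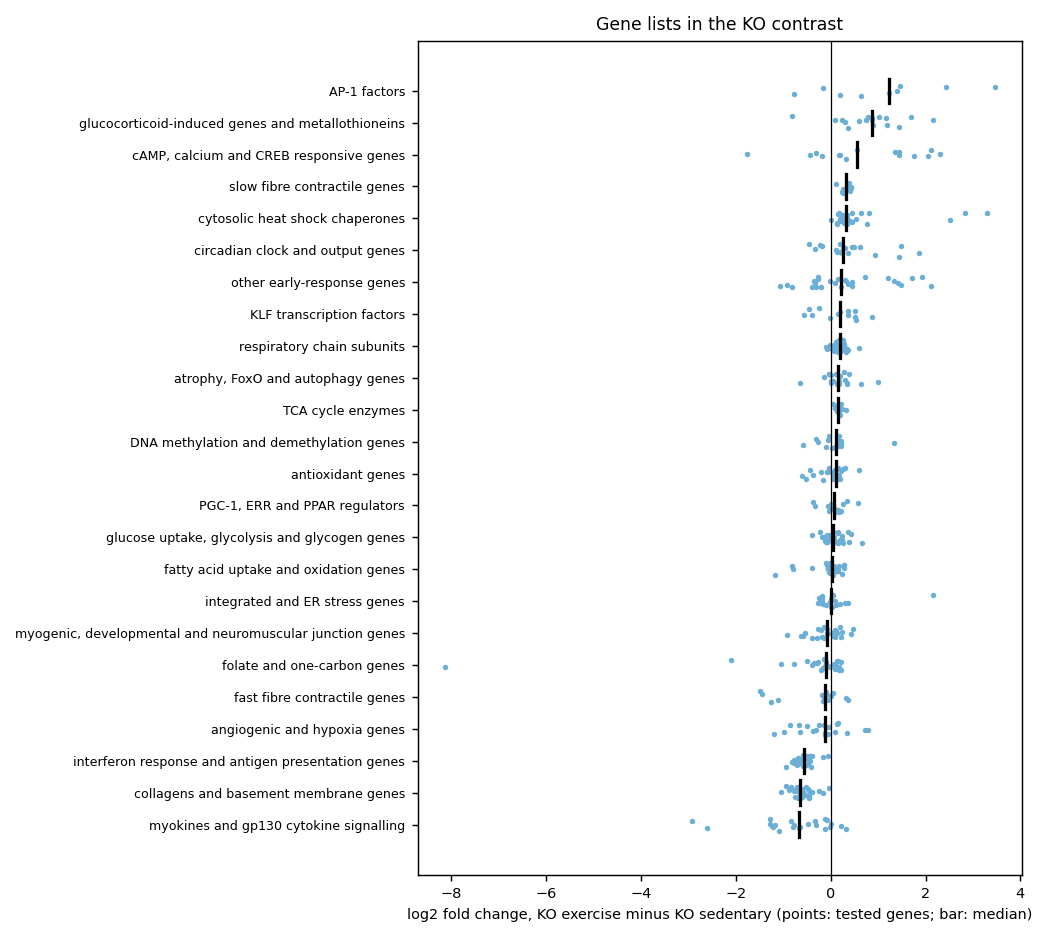
log2 fold change of KO exercise minus KO sedentary (horizontal axis) for each tested gene (points) of 24 gene lists (rows), with the median as a bar. AP-1 factors have the highest median (1.24) and the list of myokines and gp130 cytokine signalling the lowest (-0.66); all 26 chaperones and all 14 slow fibre genes lie above 0 (25 and 13 of them without scaling factors), and all 30 collagens and 23 interferon genes lie below.

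Ddit4 also belongs to the genes that glucocorticoids are known to induce. Of the 17 tested glucocorticoid-induced genes and metallothioneins, 16 had a positive change, 6 were nominally higher against 6.73% of all tested genes and DESeq2 called 3 against 0.818%, with a median of 0.87. DESeq2 called 0 of them without KO sedentary b and 0 without KO exercise a. With the hepatocyte index as a covariate that median was 0.26 and 1 gene was nominally higher. Cebpb, a factor of acute stress responses, stood at 88.8, 57.8 and 91.4 CPM against 213, 134 and 190.0 CPM, a log2 change of 1.17 ± 0.35 that DESeq2 called (adjusted p = 0.0145), though not without KO sedentary b (adjusted p = 0.1958) or without KO exercise a (adjusted p = 0.2141). Errfi1, a feedback inhibitor of the EGF receptor, stood at 66.0 to 75.4 CPM against 125 to 132 CPM, and its values were among the most even of the named genes. The groups did not overlap for these 2 genes. Of 13 KLF transcription factors 2 were nominally higher against 6.73% of all tested genes and 1 was lower against 11.2%. The 2 higher ones were Klf11 at 13.01 to 18.3 against 19.3 to 24.3 CPM and Klf6 at 64.4 to 71.4 against 92.9 to 109 CPM.

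The circadian clock genes are listed here because the clock index differs among libraries of 1 group. Of 19 tested clock and output genes 0 were nominally higher or lower, and their median of 0.26 became -0.21 without KO exercise a. Rora, a nuclear receptor of the clock, had the second smallest p of the list, at 60.4 to 62.9 CPM against 66.5 to 84.2 CPM, and Bhlhe40, a repressor, the smallest, at 175 to 248.6 CPM against 144 to 183 CPM. A clock index as covariate left 1030 genes nominally higher and 1737 lower.

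Noncoding transcripts and genes of little known function made up the rest of the higher genes. BB123696, a long intergenic noncoding RNA on chromosome 13, stood at 0.503, 0.515 and 0.856 CPM in the sedentary and at 6.35, 4.44 and 10.8 CPM in the exercised KO libraries, the second highest log2 change of the 19 genes named by their p at 3.51 ± 0.58. The antisense transcript 5031434C07Rik on chromosome 6 was nearly absent in the sedentary KO libraries, at 0.00 to 0.07 CPM. It stood at 0.55, 0.85 and 2.16 CPM in the exercised ones. At such counts DESeq2 gave it no adjusted p. The long noncoding RNA 2310020H05Rik stood at 17.2 to 21.2 CPM against 26.6 to 32.6 CPM, and Pqlc1, a membrane protein with PQ-loop repeats, at 47.8 to 65.9 against 83.7 to 97.9 CPM.

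Genes of blood vessels, macrophages and connective tissue were on the lower side. Aplnr, the apelin receptor of endothelial cells, stood at 54.8, 65.5 and 59.2 CPM in the sedentary and at 12.4, 23.9 and 7.98 CPM in the exercised KO libraries (log2 change -2.01 ± 0.47, DESeq2 adjusted p = 0.009269). DESeq2 did not call it without KO sedentary b (adjusted p = 0.1327) or without KO exercise a (adjusted p = 0.07518). The groups did not overlap, and KO exercise b was the highest of the exercised libraries. Egfl7, a protein secreted by endothelium, stood at 64.3, 51.2 and 54.4 CPM against 40.6, 34.6 and 26.4 CPM (log2 change -0.74 ± 0.15, DESeq2 adjusted p = 0.002888). Pecam1, an adhesion molecule of endothelial junctions, stood at 200.3 to 214 CPM against 126 to 172 CPM, and Cdh5, the junction cadherin, at 252 to 333 CPM against 166 to 241 CPM. Tie1, an endothelial receptor kinase, stood at 86.5 to 91.0 against 60.3 to 73.2 CPM, Emcn, a sialomucin of small vessels, at 37.0 to 45.6 against 25.8 to 31.4 CPM, and the surface protein Cd34 at 159 to 174 against 80.4 to 141 CPM. Of 12 tested endothelial markers 11 had a negative change, 8 were nominally lower against 11.2% of all tested genes, 9 did not overlap against 12.5%, and DESeq2 called 7. Their summed level was 1201 to 1333 CPM in the sedentary and 807 to 1086 CPM in the exercised KO libraries, with no marker at 0. With KO sedentary b left out, 7 were nominally lower and DESeq2 called 1. Pdgfb, a growth factor that endothelium makes for pericytes, stood at 73.2 to 92.4 against 44.0 to 59.3 CPM (DESeq2 adjusted p = 0.007589). Nrarp, a feedback regulator of Notch signalling, stood at 31.8, 27.2 and 23.4 CPM against 14.3, 13.5 and 9.49 CPM (DESeq2 adjusted p = 0.0009726). In the list of angiogenic and hypoxia genes the members did not share a direction. Egln3, a hypoxia-induced prolyl hydroxylase, was the other way round from Pdgfb, at 105 to 161 against 190.1 to 290.1 CPM (DESeq2 adjusted p = 0.01301, and 0.1732 without KO sedentary b), and the list had 2 genes nominally higher and 4 lower.

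Kcnj2, the potassium channel Kir2.1 that muscle fibres and endothelial cells both use to hold their resting potential, stood at 120.4, 166 and 140.2 CPM in the sedentary and at 81.1, 86.7 and 79.3 CPM in the exercised KO libraries. The exercised libraries were nearly equal, and the log2 change was -0.79 ± 0.14 (DESeq2 adjusted p = 0.0003023). Hjurp, a chaperone of the centromeric histone, stood at 34.2 to 37.2 CPM against 20.5 to 26.9 CPM, and Dok4, a docking protein of receptor kinases, at 20.1 to 24.2 against 12.7 to 14.6 CPM. Mycn, a MYC family factor chosen after its values were seen, stood at 8.24, 6.05 and 5.07 CPM against 0.760, 2.29 and 1.15 CPM (log2 change -2.19 ± 0.44). The transcript 6430706D22Rik stood at 27.3 to 31.9 against 17.3 to 22.0 CPM. Its log2 change was close to that of Hjurp, at -0.571 and -0.564 in KO and -0.394 and -0.381 in WT. Whether these transcripts share reads was not tested.

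Immune genes were lower as well. Csf1, the growth factor of macrophages, stood at 33.9, 31.5 and 29.1 CPM in the sedentary and at 17.7, 19.8 and 13.4 CPM in the exercised KO libraries (log2 change -0.89 ± 0.17, DESeq2 adjusted p = 0.0008172). Gbp4, an interferon-induced GTPase, had little spread, at 16.7, 18.7 and 17.0 CPM against 9.39, 9.28 and 9.13 CPM (log2 change -0.91 ± 0.14, DESeq2 adjusted p = 8.872e-05). Its exons overlap those of Gbp8 and Gbp9 on the same strand, so its reads may be shared with them. Nlrc5, a transactivator of the MHC class I genes, stood at 4.09, 3.54 and 4.28 CPM against 2.00, 1.70 and 1.15 CPM (log2 change -1.29 ± 0.23). Genes that Nlrc5 is known to control were on the same side, and whether Nlrc5 has a part in their change was not tested. H2-K1, an MHC class I chain, stood at 82.9, 112 and 72.0 CPM against 62.1, 48.9 and 51.5 CPM, its relative H2-D1 at 117, 170.3 and 109 CPM against 95.4, 81.0 and 73.8 CPM, and Tap1, a peptide transporter of the same pathway, at 7.64 to 10.6 against 3.88 to 5.66 CPM. B2m, the light chain of MHC class I, stood at 188 to 243 against 153 to 169.5 CPM. Without KO sedentary b, DESeq2 called H2-K1 (adjusted p = 0.02313) but not H2-D1 (0.06383), Tap1 (0.09803) or B2m (0.0887). Icam1, an adhesion molecule for leukocytes, stood at 12.2 to 13.9 against 4.39 to 8.69 CPM. Of the 23 tested interferon response and antigen presentation genes, 0 had a positive change, 15 were nominally lower against 11.2% of all tested genes, 13 did not overlap against 12.5% and DESeq2 called 5 against 1.88%, with a median of -0.56 that ranged from -0.61 to -0.42 when single KO libraries were left out. Leaving out KO sedentary b, 10 were nominally lower and DESeq2 called 1.

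The macrophage markers were lower beside these genes and leaned on KO sedentary b. Lyz2, the lysozyme of macrophages, stood at 57.0, 298 and 53.8 CPM in the sedentary and at 27.1, 43.1 and 24.7 CPM in the exercised KO libraries. C1qa, a complement chain that macrophages make, stood at 26.8, 56.7 and 29.1 CPM against 13.1, 21.4 and 10.7 CPM. Its partner chain C1qb stood at 23.9, 57.5 and 23.9 CPM against 11.5, 17.8 and 9.27 CPM. The groups did not overlap in these genes, with KO sedentary b above the rest. Of 11 tested macrophage markers 9 were nominally lower against 11.2% of all tested genes and DESeq2 called 6 against 1.88%, with a median of -1.31. Without KO sedentary b the median was -0.81, 6 were nominally lower and DESeq2 called 0. Their summed level was 205, 598 and 211 CPM against 110, 169 and 89.0 CPM, with no marker at 0. Themis2, a signalling protein of B cells and macrophages, stood at 5.28, 7.91 and 3.56 CPM against 1.59, 1.70 and 0.863 CPM, and DESeq2 called it with and without KO sedentary b (adjusted p = 0.000312 and 0.01734). Of the other blood cells, 1 of 8 neutrophil and 1 of 9 lymphocyte genes passed the filter. Mmp9, a protease of neutrophils, stood at 0.566 to 0.856 against 0.138 to 0.216 CPM, and Ptprc, the pan-leukocyte marker CD45, at 3.69 to 11.3 against 2.09 to 3.73 CPM. Whether a change in cell number, in RNA per cell or in the dissected sample underlies these values was not tested.

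Haemoglobin genes were lower after exercise in KO, with wide spread in the sedentary group. Hba-a1, which shares its counts with Hba-a2, stood at 65.0, 194 and 172 CPM in the sedentary and at 68.2, 53.1 and 60.0 CPM in the exercised KO libraries, so that KO sedentary a lay among the exercised libraries. In the WT libraries Hba-a1 stood at 52.0 to 91.2 CPM, below KO sedentary b and c. All 8 tested erythrocyte markers, with Hba-a1 and Hba-a2 counted separately, were nominally lower against 11.2% of all tested genes. Of the 8, 3 did not overlap against 12.5% and DESeq2 called 5 against 1.88%, with a median of -1.27. Without KO sedentary b, 7 were nominally lower and DESeq2 called 0. In 7 of the 8 the interaction of exercise and genotype had an unadjusted p under 0.05, against 3.1% of all tested genes, and 0 passed adjustment. Hbb-bt, an adult beta globin, was one of these 3, at 7.29, 15.1 and 22.6 CPM against 5.87, 6.01 and 5.03 CPM.

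**Figure D4:**
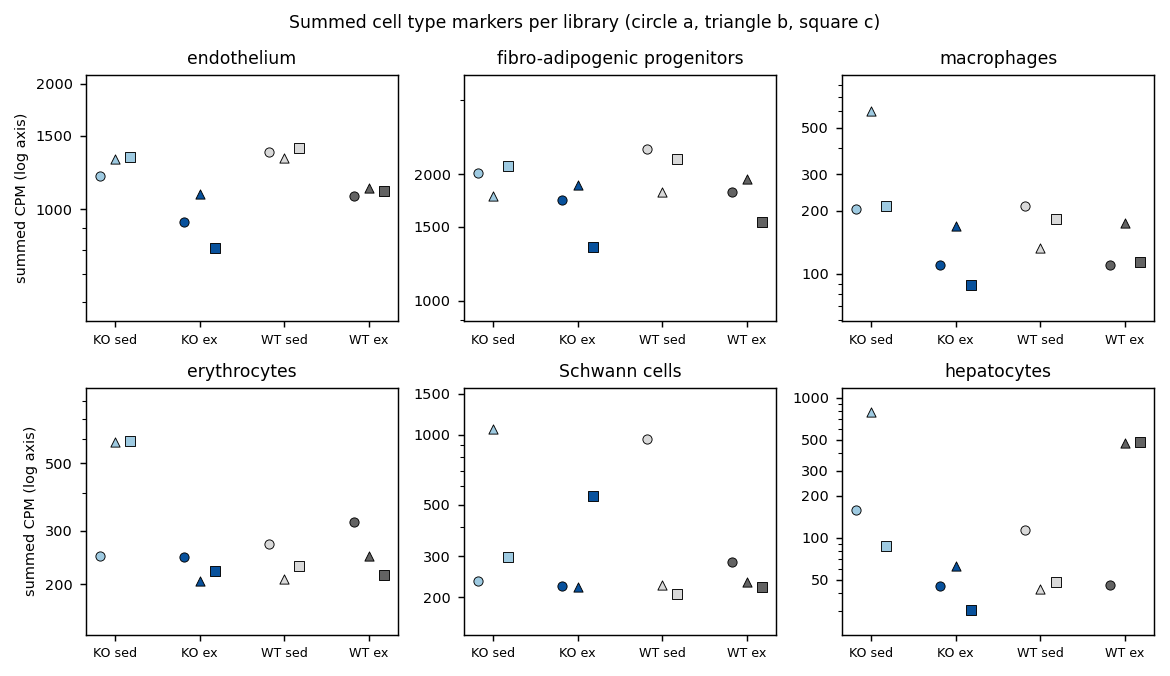
Summed CPM of the markers of 6 cell types in each library (vertical log axes), by group (horizontal axis), with circles for library a, triangles for b and squares for c. Endothelial and macrophage sums are lower in all 3 exercised than in any sedentary KO library, KO sedentary b has the highest macrophage, Schwann cell and hepatocyte sums of the KO libraries, and the hepatocyte sum is also high in WT exercise b and c.

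Connective tissue genes were lower with wide spread. Of 30 tested collagens and basement membrane genes 0 had a positive change, 15 were nominally lower against 11.2% of all tested genes, 13 did not overlap against 12.5% and DESeq2 called 0, with a median of -0.64. Leaving out KO sedentary b, 6 were nominally lower, and with the hepatocyte index as covariate 0 were, at a median of -0.34. Col4a2, a chain of basement membrane collagen, stood at 421 to 502 CPM in the sedentary and at 299.6, 392 and 228 CPM in the exercised KO libraries, and Nid2, a basement membrane linker, at 30.1 to 35.0 against 19.2, 26.01 and 12.7 CPM. In both genes KO exercise b was nearest to the sedentary libraries and KO exercise c farthest from them. Col1a1, the main fibrillar collagen, overlapped between groups, at 1522, 1347 and 861 CPM against 579, 1076 and 299.8 CPM. The median of the list was -0.42 without KO exercise c and -0.95 without KO exercise b. The tendon markers, 9 genes with Col1a1 among them, followed the same libraries, with summed levels of 2483, 2025 and 1497 CPM against 973, 1829 and 491 CPM, and their part in the collagen values was not tested. Chad, a matrix protein of tendon and cartilage, stood at 57.4, 71.0 and 63.4 CPM against 23.4, 51.9 and 12.9 CPM. Of 10 markers of fibro-adipogenic progenitors, the resident mesenchymal cells, all 10 had a negative change. Of these, 4 were nominally lower against 11.2% of all tested genes. Pdgfra, their receptor for PDGF, stood at 29.6 to 34.9 against 17.9 to 26.4 CPM, and Smoc2, a matrix protein, at 96.3 to 108 against 64.6 to 85.0 CPM, both called by DESeq2 (adjusted p = 0.04942 and 0.02426) but not without KO sedentary b (adjusted p = 0.2911 and 0.2023). Fabp4, a lipid carrier of fat and endothelial cells, stood at 301 to 398 against 233 to 292 CPM, and 3 of 9 adipocyte markers were nominally lower, among them Lipe, the hormone-sensitive lipase, at 46.7 to 72.9 against 35.7 to 43.3 CPM.

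Feedback inhibitors of cytokine signalling were among the lower genes. Socs3, which gp130 cytokines such as interleukin 6 induce, stood at 8.36, 10.2 and 6.13 CPM in the sedentary and at 4.63, 2.94 and 2.52 CPM in the exercised KO libraries (log2 change -1.29 ± 0.25, DESeq2 adjusted p = 0.001423, and 0.05973 without KO sedentary b). Socs2, which growth hormone induces, stood at 19.8, 19.5 and 14.5 CPM against 11.0, 11.0 and 8.27 CPM. Cish, another target of STAT5, split the sedentary group, at 52.7, 52.2 and 8.43 CPM against 6.35, 5.82 and 2.80 CPM. None of these 3 genes overlapped between the groups. Of 23 tested genes of myokines and gp130 signalling 1 was nominally higher against 6.73% of all tested genes and 7 lower against 11.2%. Their median was -0.66, and -0.30 without KO sedentary a.

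Antioxidant genes did not share a direction, with 2 of 25 nominally higher, or 0 without KO sedentary b, and 3 nominally lower. Gpx3, the secreted glutathione peroxidase, stood at 273, 323 and 253 CPM in the sedentary and at 193, 213 and 152 CPM in the exercised KO libraries (log2 change -0.60 ± 0.15, DESeq2 adjusted p = 0.0153). Gpx1, the cytosolic enzyme, stood at 62.2, 76.0 and 67.1 CPM against 53.6, 50.9 and 46.7 CPM (log2 change -0.44 ± 0.11, DESeq2 adjusted p = 0.02918). In neither gene did the groups overlap, and DESeq2 called neither without KO sedentary b.

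Metabolic and contractile genes of the fibre were slightly higher, and for the respiratory chain and the TCA cycle the median was close to the shift that scaling alone can give. Of 75 tested nuclear subunits of the respiratory chain 72 had a positive change, or 65 without scaling factors. Of these subunits 33 were nominally higher against 6.73% of all tested genes, 39 did not overlap against 10.3% and 0 were called by DESeq2, with a median of 0.19, or 0.08 without scaling factors. Cox7b, a subunit of cytochrome oxidase, had the smallest p of them, at 258, 211 and 264 CPM against 294, 304 and 336 CPM (log2 change 0.35 ± 0.11). Ndufa6, a subunit of complex I, came next, at 156, 139 and 166 CPM against 199, 170.0 and 195 CPM. When KO sedentary b was left out, 10 of the 75 were nominally higher, and with the hepatocyte index as covariate 1 was. Of 14 TCA cycle enzymes all 14 were positive, or 11 without scaling factors, and 4 were nominally higher (0 without KO sedentary b and 0 with the hepatocyte covariate), among them Idh2, the mitochondrial isocitrate dehydrogenase, at 1132 to 1574 against 1630 to 1793 CPM, and Fh1, fumarase, at 271 to 306 against 312 to 344 CPM. The 14 slow fibre genes were positive in all 14 members, or in 13 without scaling factors, 7 were nominally higher against 6.73% of all tested genes and 10 did not overlap against 10.3%, with a median of 0.33, or 0.22 without scaling factors. Leaving out KO sedentary b, 3 were nominally higher, and with the hepatocyte covariate 0 were. Myl2, the slow regulatory light chain, stood at 3670, 3138 and 3787 CPM against 4688, 4504 and 4960 CPM, and Myoz2, a slow Z-disc protein, at 1314, 1322 and 1397 CPM against 1848, 1683 and 1870 CPM. Tnnt1, the slow troponin T, stood at 3548 to 4144 against 4646 to 5038 CPM. Fast fibre genes gave a median of -0.11 that became 0.22 without KO sedentary b, the library with the most Myh4. Ryr1, the calcium release channel, was the 1 member called by DESeq2 (0 without KO sedentary b), at 2542 to 2584 against 2740 to 3695 CPM.

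Regulators of metabolism held few nominal changes. Ppargc1a, the coactivator PGC-1α that endurance exercise is known to induce, overlapped between the groups, at 170.4, 66.8 and 78.6 CPM in the sedentary and 66.8, 78.6 and 162 CPM in the exercised KO libraries (log2 change -0.04 ± 0.40), and its sign turned with the library left out. Of 17 regulators of the PGC-1, ERR and PPAR families 2 were nominally higher, or 0 without KO sedentary b: Esrra, the estrogen-related receptor alpha, at 125 to 174 against 173 to 199 CPM, and Med1, a subunit of the Mediator complex, at 46.8 to 52.2 against 55.0 to 60.5 CPM. Gyg, the primer of glycogen synthesis, stood at 589 to 683 against 799.6 to 869 CPM and was the 1 of 31 glucose and glycogen genes called by DESeq2 (adjusted p = 0.02354, and 0.228 without KO sedentary b). Hk1, a hexokinase, was on the other side, at 34.1 to 39.8 against 21.3 to 34.0 CPM. Of 30 genes of fatty acid use 4 were nominally higher against 6.73% of all tested genes, or 1 without KO sedentary b. Their median was 0.04, and -0.08 without scaling factors. Etfa, an electron carrier of fatty acid oxidation, stood at 212 to 254 against 270.4 to 304 CPM, and Lpl, the lipase that frees fatty acids at the vessel wall, at 2825 to 3453 against 3717 to 4090 CPM.

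Apart from the hepatocyte markers, the other lists held few nominal changes. Of 21 atrophy, FoxO and autophagy genes 1 was nominally higher, Trim63, the ubiquitin ligase MuRF1, at 58.0, 119.6 and 163 CPM against 161, 178 and 338 CPM. Eif4ebp1, a repressor of cap-dependent translation, had the next smallest p there, at 60.5 to 64.8 against 69.2 to 100.4 CPM. Of 25 myogenic and junction genes 1 was nominally lower, Runx1, a factor that denervation raises, at 7.40 to 14.96 against 4.60 to 6.67 CPM. Chrnb1, a subunit of the acetylcholine receptor, stood at 42.9 to 60.6 against 37.7 to 49.8 CPM. Of 16 DNA methylation genes Gadd45b, a stress gene linked to demethylation, was nominally higher at 3.99 to 10.3 against 10.1 to 27.3 CPM, and Dnmt1, the maintenance methyltransferase, nominally lower at 16.7 to 20.4 against 13.2 to 16.3 CPM. Of 28 folate and one-carbon genes 1 was nominally lower, Folr2, a folate receptor of macrophages, at 3.86 to 6.26 against 2.37 to 3.99 CPM, and Slc46a1, a folate transporter, stood at 1.58 to 2.57 against 1.37 to 1.63 CPM. Among markers of smooth muscle and pericytes 2 of 10 were nominally lower, Tagln at 49.0 to 50.5 against 33.0 to 45.4 CPM and Pdgfrb at 79.5 to 99.1 against 54.5 to 76.7 CPM. Of 8 satellite cell markers Vcam1 was nominally lower at 5.47 to 9.99 against 5.68 to 5.87 CPM, and Sdc4 stood at 36.3 to 103 against 76.0 to 196 CPM. Of 10 Schwann cell markers 0 were nominally lower, and their median of -0.65 became 0.23 without KO sedentary b. Sox10, their lineage factor, stood at 3.27, 13.9 and 5.53 CPM against 3.52, 3.53 and 5.18 CPM, and Prx, a protein of the myelin sheath, at 12.2, 50.7 and 16.3 CPM against 12.1, 10.1 and 23.0 CPM, so that the groups overlapped in both. The hepatocyte markers gave 15 of 18 nominally lower, with Alb, the main plasma protein of liver, at 20.6, 329 and 9.42 CPM against 0.00, 0.46 and 6.04 CPM, and 1 of 18 without KO sedentary b. Fga, a fibrinogen chain of liver, stood at 2.14, 32.8 and 0.593 CPM against 0.00, 0.07 and 0.359 CPM. Cyp2e1, a cytochrome P450 of liver, was highest in another library, at 62.7, 41.2 and 22.5 CPM against 13.9, 12.6 and 2.23 CPM.

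The same contrast in WT muscle, which shares no library with the KO contrast, gave 3 genes past an adjusted p of 0.05 by edgeR's quasi-likelihood test (0.0216%): Fosl2 and Slc25a25 higher and Akap5 lower. With single libraries left out, 9 of 12 such fits called 0 genes, as did the fit with the clock covariate. Slc25a25 changed there by 2.40 ± 0.30, Fosl2 by 0.88 ± 0.12 and Akap5 by -2.13 ± 0.28 on the log2 scale. Across all 13886 genes the log2 changes of the genotypes correlated with a Spearman rho of 0.507, where genes are not independent replicates. Of the 935 nominally higher genes in KO 88.2% were positive in WT, beside 51.0% of all tested genes, and of the 1557 nominally lower ones 85.4% were negative, beside 49.0%. In both genotypes a column with a pair of animal numbers stands in the exercised group only. These libraries, KO exercise a and WT exercise a, had the highest clock indices of all libraries, at 6.93 and 6.815. Their part in the agreement between the genotypes was not tested. The AP-1 median was 1.09 in WT and 1.24 in KO, and the chaperone median 0.26 and 0.31. The KO change minus the WT change was -0.24 ± 0.17 for Fosl2, -0.64 ± 0.40 for Slc25a25 and 0.36 ± 0.39 for Akap5 (SE), and it did not pass the test in any of them (adjusted p = 0.9997 by edgeR in each).

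The test of the difference itself, the interaction of exercise and genotype, called 0 genes by edgeR's quasi-likelihood test (0.0%, smallest adjusted p 0.9997), and 430 genes (3.1%) had an unadjusted p under 0.05. Gpx1 had the smallest p of these (0.0007482, unadjusted): against a KO change of -0.44 its WT change was 0.24 ± 0.11, from 39.8 to 49.3 CPM in the sedentary to 47.6 to 56.4 CPM in the exercised WT libraries. The sedentary groups of the genotypes did not overlap for Gpx1, with 62.2 CPM as the lowest sedentary KO value, while the exercised groups overlapped. Gpx3 showed the same arrangement, at 125 to 170.2 CPM in the sedentary and 133 to 163 CPM in the exercised WT libraries (KO change minus WT change -0.63 ± 0.21, adjusted p = 0.9997 by edgeR). Apbb2, an adaptor of the amyloid precursor protein, stood at 38.7 to 44.5 against 43.3 to 45.1 CPM in KO and at 53.1 to 54.4 against 37.2 to 42.6 CPM in WT. Hk3, a hexokinase of white blood cells, stood at 0.725 to 1.801 against 0.0691 to 0.327 CPM in KO and at 0.373 to 0.402 against 0.402 to 0.761 CPM in WT. Nlrc5 was the 1 gene of the 19 named by their p with an unadjusted interaction p under 0.05 (0.01308), with a WT change of -0.37 ± 0.22. Ces1c, a liver carboxylesterase, followed the hepatocyte markers, with 5.53 CPM in KO sedentary b and 3.99 and 4.64 CPM in WT exercise b and c, and at most 0.566 CPM in the other 9 libraries. None of these differences passed adjustment over all genes.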

How the data were processed

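RNA of whole soleus was sequenced on a BGISEQ instrument after Trizol extraction, per the labels' protocols. The analysis started from raw counts per gene in the deposited table of the series; 12 further columns of per-sample values in it were not used. STAR, featureCounts and build mm10 are named in the submitters' processing notes; no source used here gives their versions, the annotation or the strand setting. Count columns name genotype, condition and animal numbers that match no sample label, so libraries were mapped to groups only and called a, b and c in column order. In KO exercise a and WT exercise a the column name holds a pair of animal numbers. Libraries were treated as separate mice, after the 3 mice a group in the design text; if they were not, the p-values measure only the spread between these samples.

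Genes were filtered with filterByExpr (minimum count 10), libraries scaled with TMM, and all 12 libraries fitted in 1 quasi-likelihood model in which each group has its own mean (edgeR 4.0.16 in R 4.3.3, robust glmQLFit). Residual degrees of freedom were 8, the median of the prior ones 4.45, and the biological coefficient of variation 0.168. Adjusted p-values are Benjamini-Hochberg values over the 13886 tested genes, and unless another tool is named they are edgeR's. The procedure was run on simulated counts with the same biological coefficient of variation for every gene and no library that stands apart. That setting is simpler than these data, so it cannot show how the fit behaves with a library such as KO sedentary b. CPM are TMM-scaled and were computed here, errors of log2 changes are standard errors, and ranges run over the 3 libraries of a group. Totals were 13329547 to 15480960 per library. Counts differed between libraries of a group by more than sampling noise (chi-square per gene 8.73 to 51.9). Among well-covered genes, 40 had the same counts as another gene. Other fits used DESeq2 1.42.0, limma-voom (limma 3.58.1), other scalings and filters, covariates and left-out libraries; 3 fits were added after seeing the data.

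The comparison, the gene lists and the marker lists were chosen with earlier results of these data known. Named were Dnmt3a, the 10 higher and 10 lower genes with the smallest p (since fewer than 10 were called), the 2 members of each list with the smallest p and the 4 smallest interaction p. Of these, 2 genes are not reported here. Atf3, Fos, Nr4a2, Nr4a3, Sik1, Irs2, Egr1, Hspa1b, Dnajb1, Hsph1, Aplnr, Cdh5, Lyz2, Cish, Hba-a1, Ppargc1a, Alb, Col1a1, Nrarp, Mycn, B2m, H2-D1, Icam1, Tie1, Emcn and Cd34 were named after their values were seen. Promoters had been planned for called genes only. Gene positions and overlaps are from GENCODE M21 on GRCm38, and promoter windows from RefSeq, which holds 10689 of the tested genes.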

Additional observations from a re-analysis of the deposited data

Results flagged for a closer look

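By DESeq2, 22 genes differed between genotypes in their response to exercise, all 22 with a lower response in KO than in WT, a difference flagged because the interaction itself was tested. All 22 were highest in the 3 libraries rich in Alb (KO sedentary b, WT exercise b and WT exercise c), and 4 of them are in the hepatocyte list. Without KO sedentary b DESeq2 called 1 gene in the interaction, and edgeR's quasi-likelihood test called 0 with all libraries. Gpx1, Gpx3 and Nlrc5, described above, were not among the 22 genes. The DESeq2 adjusted p of the interaction was 0.05395 for Gpx1, just above the threshold, and 0.5994 for Gpx3. How the liver transcripts came into these libraries was not tested.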

How the results depend on the processing

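With edgeR, the count of genes called between exercised and sedentary KO soleus was 0 under the other scalings, filters and covariates, 7 when only the 2 KO groups entered the fit, and 0 to 4 when single libraries were left out. DESeq2 called 359 genes, 38 without KO sedentary b and 143 without KO exercise a. The 3 WT calls became 122 by DESeq2 (147 and 131 without those libraries), 1 by limma-voom, 6 with only the WT groups, 48 with the hepatocyte covariate, 0 with the clock covariate, 1 with the fast fibre covariate, 11 without the 3 Alb-rich libraries, and 0 to 8 when single libraries were left out, with 0 in 9 of 12 such fits. The interaction gave 0 calls by edgeR and 22 by DESeq2, or 1 without KO sedentary b and 8 without KO exercise a. The 935 nominally higher genes became 229 without scaling factors, 302 with the hepatocyte covariate, 454 to 1066 when single libraries were left out, and 601 by DESeq2 without KO sedentary b. The 1557 nominally lower genes became 497 with the hepatocyte covariate, 880 to 1906 when single libraries were left out, and 855 by DESeq2 without KO sedentary b.

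Of 115 named genes, 3 changed sign. The log2 change of Prx, -0.81, was 0.0734 with the hepatocyte covariate, 0.0872 by DESeq2 without KO sedentary b, 0.0769 without the 3 Alb-rich libraries and -1.25 to 0.0756 when single libraries were left out. That of Apbb2 was -0.0413 without scaling factors. That of Ppargc1a was 0.0448 with the fast fibre covariate, 0.2001 by DESeq2 without KO exercise a and -0.53 to 0.50 when single libraries were left out. For these changes the cause was not tested. Of 948 medians of gene lists under alternatives, 67 moved beyond the spread between libraries. No neutrophil median could be given under the 1 CPM filter or with only the KO groups, where no member was left. Genes near 1 CPM rest on about 15 reads a library. No paired analysis was possible because the count columns do not carry the replicate numbers of the labels.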
